A study of Homo sapiens with 6 samples.

Results

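Of 6 mRNA libraries from OCI-AML2 cells, an established human line derived from acute myeloid leukemia, 2 stood apart from the other 4 in overall expression: replicate 2 of the libraries labelled NT control and replicate 1 of those labelled IKZF1-ko. They are called the pair below, and the other 4 are NT control replicates 1 and 3 and IKZF1-ko replicates 2 and 3. The pair was chosen by its score on the first principal component of log2 expression over all genes, which held 67.6% of the variance. The scores were 39.5 for NT control replicate 2 and 50.1 for IKZF1-ko replicate 1, against -16.3 and -16.7 for IKZF1-ko replicates 2 and 3 and -27.5 and -29.1 for NT control replicates 1 and 3, so 39.5 was the score just inside the rule and -16.3 the score just outside it. No label names a treatment, oxygen level, culture day or preparation that the pair shares. Because these same counts chose the pair, differences between the pair and the other 4 libraries are given as a description, with no test.

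NT control stands for cells given a non-targeting guide, and IKZF1-ko for cells in which CRISPR editing was aimed at IKZF1, the gene of the blood transcription factor Ikaros. Both groups were OCI-AML2 cells grown in RPMI medium with fetal bovine serum and with no drug named in the labels, in a study of the CDK4 and CDK6 inhibitor palbociclib and of venetoclax resistance. The sources give both 3 lines per group and a triplicate of parental and knockout cells, so the spread between libraries of a group may be technical. IKZF1 mRNA was at 331, 292 and 334 CPM (read counts scaled to library size) in NT control replicates 1, 2 and 3 and at 421, 426 and 436 CPM in IKZF1-ko replicates 1, 2 and 3. It was thus not lower in any library labelled IKZF1-ko, and counts per gene do not show an edit, so the labels are not checked by it.

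Cells sense oxygen through the hypoxia-inducible factors (HIF). In oxygen, prolyl hydroxylases of the EGLN family mark the HIF alpha subunits for the ubiquitin ligase that contains VHL, and the subunits are destroyed. When oxygen, iron or 2-oxoglutarate runs short, or the hydroxylases or VHL are blocked, the alpha subunit persists, pairs with ARNT and binds promoters at a short core, ACGTG or GCGTG, the hypoxia response element. The genes bound there take up and ferment glucose, store glycogen, hold pyruvate out of the mitochondria, remove mitochondria and signal for new vessels. The synthesis of DNA, ribosomes and protein is often lowered in cells that are short of oxygen or nutrients.

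The promoters of 5 HIF target genes described below are shown first, as examples picked because they carry the core to which HIF binds. Each is the 250 bases before the RefSeq start on build GRCh38.p14, 5′ to 3′ on the gene's strand, and capitals mark the core on either strand (ACGTG or GCGTG, or their complements CACGT and CACGC). MIR210HG, the host gene of a hypoxia-induced microRNA, is at chr11:568458-568707 on the minus strand. PFKFB4, the gene of an enzyme that sets the level of the glycolysis activator fructose 2,6-bisphosphate, is at chr3:48556804-48557053 on the minus strand. ENO2, a glycolytic enolase gene, is at chr12:6914330-6914579 on the plus strand. BNIP3, the gene of a mitophagy receptor, is at chr10:131981924-131982173 on the minus strand. ANKRD37, the gene of an ankyrin repeat protein, is at chr4:185396591-185396840 on the plus strand.
MIR210HG: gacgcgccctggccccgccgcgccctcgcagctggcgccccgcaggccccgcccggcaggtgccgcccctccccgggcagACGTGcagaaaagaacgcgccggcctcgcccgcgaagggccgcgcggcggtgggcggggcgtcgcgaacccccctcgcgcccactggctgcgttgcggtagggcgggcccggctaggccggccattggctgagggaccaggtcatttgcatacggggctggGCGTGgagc
PFKFB4: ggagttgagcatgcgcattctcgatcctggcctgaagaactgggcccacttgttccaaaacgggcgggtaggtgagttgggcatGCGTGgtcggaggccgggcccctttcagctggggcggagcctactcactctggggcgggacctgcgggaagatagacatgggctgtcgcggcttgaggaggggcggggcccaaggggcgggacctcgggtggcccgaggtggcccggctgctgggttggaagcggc
ENO2: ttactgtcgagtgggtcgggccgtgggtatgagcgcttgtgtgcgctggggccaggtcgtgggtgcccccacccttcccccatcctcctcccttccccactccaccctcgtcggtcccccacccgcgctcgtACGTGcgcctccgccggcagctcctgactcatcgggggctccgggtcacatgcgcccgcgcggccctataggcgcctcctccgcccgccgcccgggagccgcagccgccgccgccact
BNIP3: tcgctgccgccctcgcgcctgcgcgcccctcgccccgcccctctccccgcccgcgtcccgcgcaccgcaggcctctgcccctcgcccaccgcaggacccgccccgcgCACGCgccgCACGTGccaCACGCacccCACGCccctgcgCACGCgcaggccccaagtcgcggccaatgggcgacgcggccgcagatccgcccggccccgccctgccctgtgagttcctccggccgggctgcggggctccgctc
ANKRD37: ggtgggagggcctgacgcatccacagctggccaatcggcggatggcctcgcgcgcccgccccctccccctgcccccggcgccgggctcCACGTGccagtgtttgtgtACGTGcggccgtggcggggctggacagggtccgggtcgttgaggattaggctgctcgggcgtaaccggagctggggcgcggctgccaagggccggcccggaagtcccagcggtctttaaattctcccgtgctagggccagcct
The core began 170 and 9 bases before the start in MIR210HG, 166 bases before it in PFKFB4 and 118 bases before it in ENO2. BNIP3 held 6 matches in 5 separate stretches, and ANKRD37 3 matches in 2 stretches, since the letters CACGTG match on both strands. Of 47 measured HIF target genes, 37 had a promoter in the RefSeq table, and 35 of these (94.6%) held ACGTG or GCGTG on either strand within 250 bases before a start, against 47.4% of 27305 genes in the table. ACGTG alone was present in 28 of the 37 (75.7%), against 21.7% of all genes. A gene with several starts counted if any of them had a match, and the 27305 genes include genes not tested here. The list was drawn up as known HIF targets, with earlier results of these data known. These shares thus describe the list and are no independent support for the difference between the libraries. A match is a count of letters and does not show that HIF was bound there.

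The libraries held 11300519 to 18214328 counts each, and the pair, with 14983528 and 15250588, lay inside that range. A gene's level is given below in CPM scaled by TMM factors. The set difference is the mean of NT control replicate 2 minus the mean of its replicates 1 and 3, and of IKZF1-ko replicate 1 minus the mean of its replicates 2 and 3, in log2 CPM with a prior count of 2. Folds come from that scale, which understates the differences of genes with low counts. A gene is called not overlapping when both libraries of the pair lie on the same side of all 4 others. Of 13028 genes that passed the filter on low counts, 4230 (32.5%) did not overlap and were higher in the pair, and 4100 (31.5%) were lower. Those that were also at least 2-fold apart numbered 742 higher (5.70%) and 342 lower (2.63%). The pair was chosen by these values, so the shares only set the scale for the member counts that follow.

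The difference was similar within both labels. Across genes, the difference inside NT control and that inside IKZF1-ko had a Pearson r of 0.82 and a Spearman rho of 0.83, and 84.4% of genes had the same sign in both, which the choice of the pair itself favours. In NT control, 911 genes were at least 2-fold higher and 372 at least 2-fold lower in the library set apart, and in IKZF1-ko 771 were higher and 465 lower. Between the libraries left in each label far fewer genes were that far apart: 256 between NT control replicates 1 and 3 and 108 between IKZF1-ko replicates 2 and 3. The median size of the log2 difference was 0.099 and 0.087 between those like libraries, against 0.37 within NT control and 0.36 within IKZF1-ko for the library set apart. In the plot of the within-label differences, the HIF target genes lay toward the upper right and the replication genes toward the lower left in both labels.

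**Figure D1:**
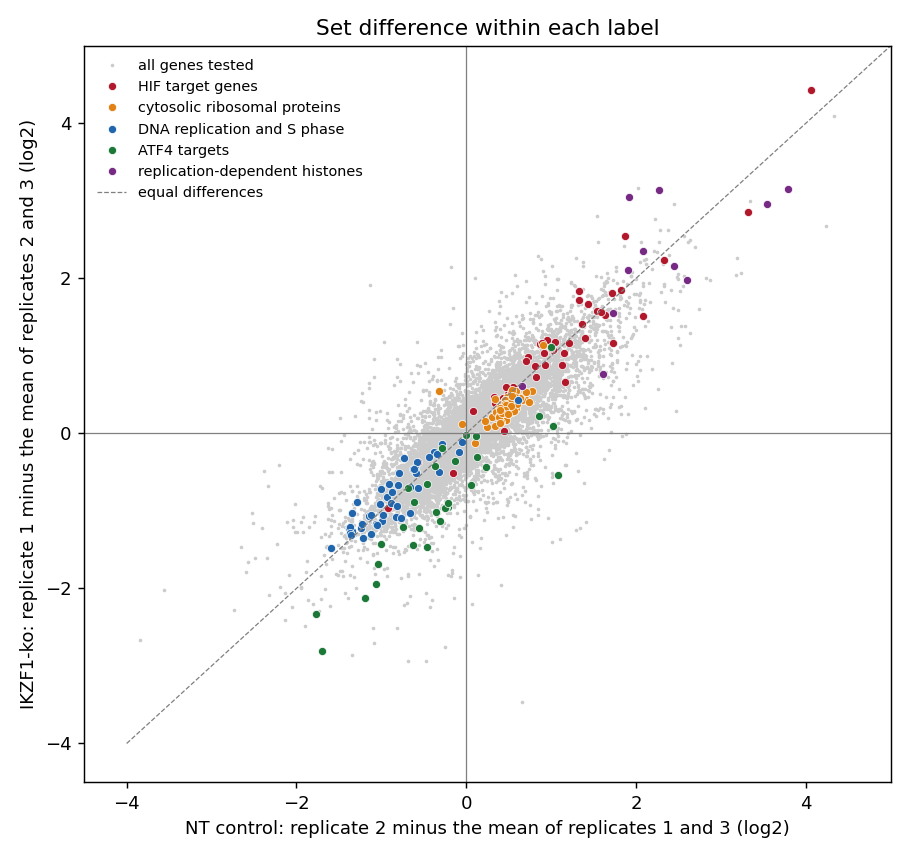
Each point is a gene, with the log2 difference of NT control replicate 2 from its 2 like-labelled libraries on the x axis and that of IKZF1-ko replicate 1 on the y axis. Grey points are all 13028 genes tested, colours mark 5 gene lists, and the dashed line marks equal differences. ATF4 target genes lie mostly below that line, with medians of -0.30 in NT control and -0.89 in IKZF1-ko.

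Most HIF target genes were higher in the pair. Of 56 listed genes, 47 passed the filter, and of these 41 did not overlap and were higher, 3 were lower and 3 overlapped. The median log2 difference was 1.02, with 0.96 in NT control and 1.04 in IKZF1-ko, against 0.01 over all genes, and 25 of the 47 were at least 2-fold higher. The 9 listed genes below the filter include EGLN3, P4HA2, PLOD2, ANGPTL4 and LOX.

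MIR210HG had the largest difference of any gene that met the rule for naming. It was at 1.61, 24.0 and 1.05 CPM in NT control replicates 1, 2 and 3 and at 31.5, 1.15 and 1.54 CPM in IKZF1-ko replicates 1, 2 and 3. Both libraries of the pair were thus far above all the others, by 19.0-fold on the log2 scale used. PFKFB4 was at 21.2, 234 and 25.7 CPM in NT control and at 246, 36.8 and 30.9 CPM in IKZF1-ko, 8.5-fold higher in the pair. The other bifunctional enzyme gene of this family that was measured, PFKFB3, went the other way, with 42.3, 39.5 and 45.9 CPM in NT control and at 31.8, 46.7 and 44.2 CPM in IKZF1-ko.

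The target genes that act on glucose and pyruvate were higher by different amounts. ENO2 was at 7.89, 40.0 and 7.79 CPM in NT control and at 56.8, 12.4 and 11.4 CPM in IKZF1-ko (4.88-fold). The aldolase gene ALDOC was at 109, 456 and 107 CPM and at 459, 168 and 153 CPM (3.47-fold). In both genes both libraries of the pair lay well above all the others, close together in ALDOC and with IKZF1-ko replicate 1 the higher in ENO2. The glucose transporter gene SLC2A3 was 2.99-fold higher, SLC2A1, the gene of the widely expressed glucose transporter, 2.02-fold, and the hexokinase gene HK2 2.05-fold. PDK1, the gene of the kinase that shuts off pyruvate dehydrogenase, was at 86.9, 127 and 85.6 CPM in NT control and at 141, 90.9 and 94.6 CPM in IKZF1-ko, 1.49-fold higher. The abundant targets of the glycolytic pathway differed less: the lactate dehydrogenase gene LDHA was 1.32-fold and the phosphoglycerate kinase gene PGK1 1.29-fold higher, without overlap.

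Target genes outside glucose metabolism were also higher. BNIP3 was at 37.1, 141 and 43.0 CPM in NT control and at 164, 47.6 and 43.2 CPM in IKZF1-ko (3.57-fold), and its relative BNIP3L was 1.97-fold higher. The autophagy and mitophagy list that holds both had 7 of 22 genes higher, 3 lower and 12 overlapping, with a median of 0.11. Its share of higher genes was near that over all genes (32.5%). Its share of lower genes was below that over all genes (31.5%). HILPDA, the gene of a lipid droplet protein, was at 23.2, 87.9 and 24.8 CPM and at 123, 21.5 and 20.3 CPM (4.63-fold). IKZF1-ko replicate 1 held the higher value of the pair in both genes. P4HA1, which encodes a subunit of collagen prolyl hydroxylase, was at 111, 329 and 114 CPM and at 422, 139 and 144 CPM (2.95-fold). The histone demethylase genes KDM3A and KDM4B, whose enzymes use oxygen, were 2.87-fold and 2.49-fold higher. NDRG1, a stress-response gene, was at 300.4, 755 and 288 CPM in NT control and at 854, 324 and 319.5 CPM in IKZF1-ko (2.61-fold). ZNF395 (3.41-fold), FUT11 (3.00-fold), ANKZF1 (2.99-fold) and ANKRD37 (2.94-fold) were also set apart, ANKRD37 at no more than 8.35 CPM in any library.

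Some target genes known from other tissues did not follow. VEGFA, the gene of the main vessel growth factor, was at 73.0, 92.5 and 63.0 CPM in NT control and at 102, 101 and 98.5 CPM in IKZF1-ko, so that NT control replicate 2 lay below all the IKZF1-ko libraries. VLDLR (log2 difference 0.04) and CA12 (-0.47) also overlapped. The carbonic anhydrase gene CA9, often used as a hypoxia marker, did not overlap and was 2.73-fold higher, but at 1.84 and 1.94 CPM in the pair and 0.350 to 0.946 CPM in the others. The 3 that were lower without overlap were PFKFB3, the transferrin receptor gene TFRC and DDIT4, the gene of an mTORC1 inhibitor. TFRC was at 406, 217 and 414 CPM in NT control and at 168, 322 and 333 CPM in IKZF1-ko (1.92-fold lower). The plot of HIF target levels shows TFRC as the reverse of the genes at its top.

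**Figure D2:**
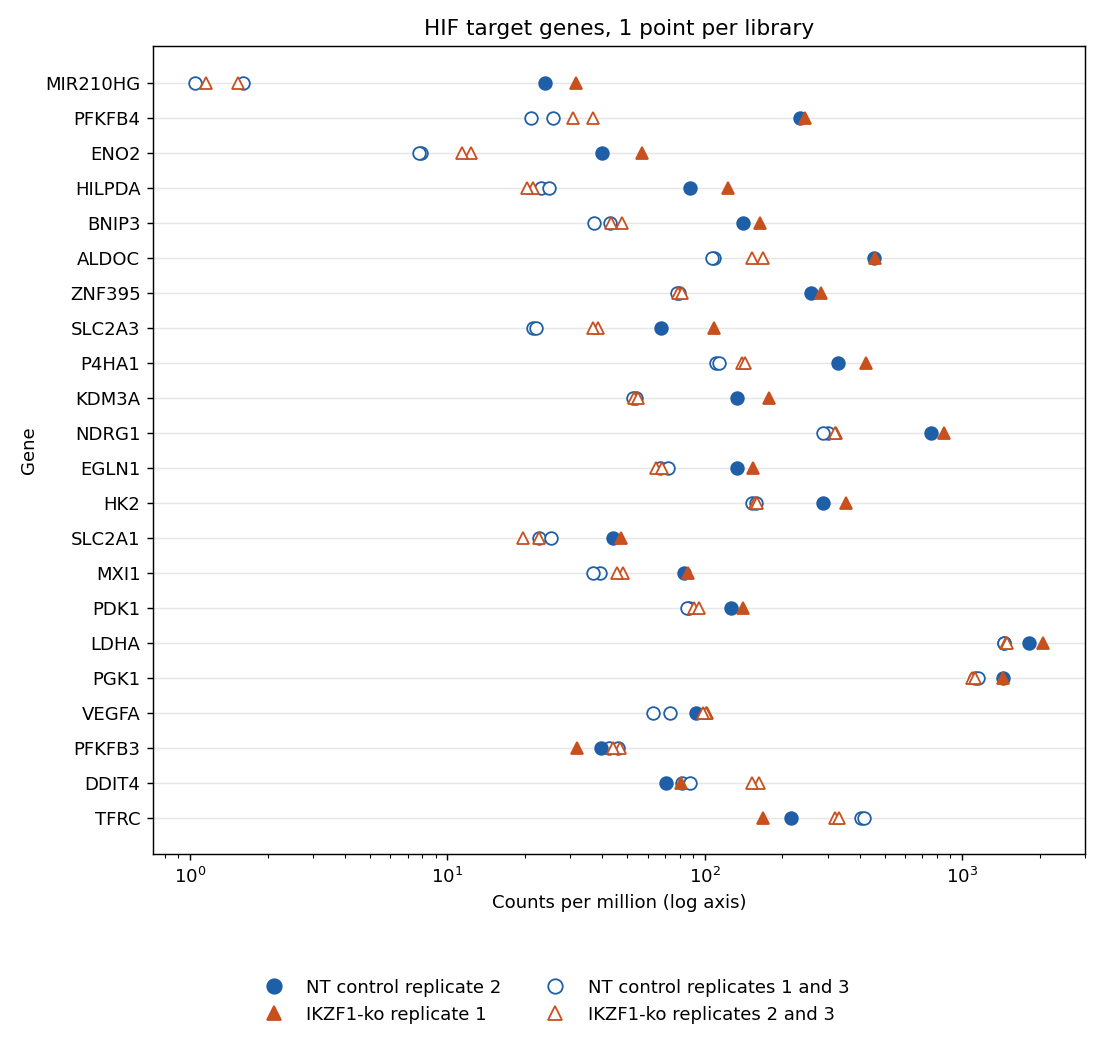
The x axis is CPM on a log scale and each row is a HIF target gene, with 1 point per library. Filled symbols are NT control replicate 2 and IKZF1-ko replicate 1, open symbols the other 4 libraries. From MIR210HG to PGK1 both filled symbols lie to the right of all open ones, whereas in VEGFA they overlap and in PFKFB3, DDIT4 and TFRC they lie to the left.

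The components that sense oxygen showed no shared direction. Of 16 measured genes, 7 were higher and 5 lower without overlap, with a median of 0.06. HIF1A, which encodes the main alpha subunit, was at 59.3, 58.1 and 60.3 CPM in NT control and at 57.3, 55.9 and 58.8 CPM in IKZF1-ko, so the sets overlapped and its mRNA level did not go with that of its targets. EPAS1, the gene of another alpha subunit, did not pass the filter. The genes that were higher include feedback targets of HIF: EGLN1, the main hydroxylase gene, was at 66.9, 134 and 71.8 CPM and at 154, 64.8 and 68.1 CPM (2.12-fold). CITED4 and CITED2, whose proteins compete with HIF for its coactivators, were 2.01-fold and 1.26-fold higher. On the other side, the ligase genes VHL (1.29-fold), ELOC (1.29-fold) and CUL2 (1.28-fold) and the coactivator genes CREBBP (1.47-fold) and EP300 (1.31-fold) were lower in the pair. Protein amounts were not measured. Of the demethylase genes whose enzymes need oxygen, iron and 2-oxoglutarate, 10 of 20 were higher and 5 lower, with KDM6B 2.18-fold higher and RIOX2 2.15-fold lower.

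Glycolysis as a whole was less shifted than the HIF targets within it. Of 26 measured genes, 14 were higher and 6 lower without overlap, with a median log2 difference of 0.16. ALDOA was 1.52-fold and GPI 1.58-fold higher, while LDHB (log2 difference 0.01), PFKP (-0.05) and TPI1 (0.06) overlapped and PKM was at -0.11. TIGAR, which encodes a phosphatase that opposes PFKFB enzymes and is also a p53 target, was lowest of the list, at 10.2, 3.21 and 9.89 CPM in NT control and at 1.74, 7.64 and 9.70 CPM in IKZF1-ko. As a share of all counts, the listed genes made up 2.19% and 2.13% in the pair and 1.74% to 1.81% in the others. Glycogen genes tended upward, with 10 of 15 higher and 2 lower. Among them were the scaffold genes PPP1R3E (3.49-fold) and PPP1R3B (3.04-fold), whose proteins bring phosphatase to glycogen, the branching enzyme gene GBE1 (2.07-fold) and the glycogen synthase gene GYS1 (1.79-fold). The brain-type phosphorylase gene PYGB was 2.17-fold lower.

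Mitochondrial mRNAs and the genes of their expression machinery were mostly lower in the pair, and respiratory chain genes divided. Of 72 nuclear genes of respiratory chain subunits, 30 were lower, 13 higher and 29 overlapped, with a median of -0.20 and no member 2-fold apart. CYCS, the cytochrome c gene, had the largest difference among those that were lower, with 252, 136 and 268 CPM in NT control and at 117, 195 and 205 CPM in IKZF1-ko (1.81-fold). Of the 13 mRNAs encoded in mitochondrial DNA, 10 were lower and none higher without overlap, and they took 2.36% and 2.65% of counts in the pair against 3.06% to 3.58% in the others. All mitochondrial genes together, those without an mRNA included, took 3.16% and 3.66% against 3.63% to 4.21%, so these shares overlapped. MT-CYB was 1.75-fold lower. The machinery that expresses the mitochondrial genome was lower in 15 of 19 genes, led by the translation factor gene GFM1 (109, 48.6 and 123 CPM under NT control; 45.5, 97.4 and 102 CPM under IKZF1-ko; 2.28-fold) and the coactivator gene PPRC1 (2.07-fold). POLG2, the accessory subunit gene of the mitochondrial DNA polymerase, was 1.92-fold higher. Among pyruvate entry and citric acid cycle genes 14 of 29 were lower and 6 higher, with IDH3A 1.80-fold lower.

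Most cell cycle genes were lower, with larger differences among replication genes than among those of mitosis. Cyclins D with CDK4 and CDK6, and then cyclins E with CDK2, phosphorylate the RB family of proteins, which frees E2F factors to switch on the genes of DNA replication. Of 21 measured genes of G1 control, 11 were lower and 8 higher without overlap, with a median of -0.50, and 8 were at least 2-fold lower. CCND3, the gene of cyclin D3, was at 229.7, 73.4 and 232 CPM in NT control and at 94.4, 264 and 256 CPM in IKZF1-ko, 2.94-fold lower in the pair. The other D-type cyclins were measured at lower levels and went the other way, CCND1 at 1.30-fold and CCND2 at 2.25-fold higher, the latter at no more than 1.94 CPM. CCNE2 was at 26.9, 8.12 and 25.3 CPM and at 8.69, 21.6 and 21.5 CPM (2.79-fold lower), and CCNE1 was 2.04-fold lower.

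The RB family divided, and the kinases did not all shift. CDK4 was at 219, 159.9 and 213 CPM in NT control and at 137, 209 and 199 CPM in IKZF1-ko (1.42-fold lower). CDK2 was 1.53-fold lower. CDK6 hardly differed, at 359, 375 and 365 CPM and at 367, 328 and 349 CPM (1.06-fold higher). RB1 overlapped, at 129.9, 122 and 129.8 CPM and at 142, 136 and 137 CPM. RBL1, itself known as an E2F target, was at 49.0, 17.3 and 58.0 CPM and at 19.9, 47.8 and 52.0 CPM (2.76-fold lower), while RBL2, whose protein keeps resting cells out of the cycle, was 1.27-fold higher. The activator genes E2F1 and E2F2 were 2.19-fold and 2.00-fold lower and E2F4 was 2.01-fold lower. The inhibitors also divided, with CDKN1A 3.02-fold lower (80.4, 30.2 and 76.2 CPM; 14.8, 52.2 and 53.6 CPM), CDKN1B 1.62-fold higher (42.8, 65.2 and 43.0 CPM; 78.5, 45.4 and 45.5 CPM) and CDKN2C 1.48-fold higher.

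Replication genes were lower with few exceptions. All 48 passed the filter, 45 were lower without overlap and 19 of these by at least 2-fold, and the median was -0.88 in NT control and -0.89 in IKZF1-ko. CLSPN, the gene of a checkpoint mediator at replication forks, was at 46.9, 15.8 and 48.7 CPM in NT control and at 13.8, 38.5 and 39.3 CPM in IKZF1-ko (2.90-fold lower). CHAF1B, whose protein loads histones on new DNA, was 2.52-fold lower, the flap endonuclease gene FEN1 2.51-fold, the origin licensing gene CDC6 2.47-fold and MCM10 2.46-fold. PCNA, the gene of the sliding clamp, was at 277, 111 and 296 CPM and at 98.6, 227 and 229.7 CPM (2.44-fold lower). The single gene that was higher was the licensing factor gene CDT1, at 102, 157 and 103 CPM and at 177, 131 and 130.5 CPM. As a share of counts the list stood at 0.401% and 0.382% in the pair and at 0.705% to 0.764% in the others. In bulk RNA, fewer cells in S phase and less of these mRNAs per cell cannot be told apart.

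E2F sites are shown for a pair of these genes, PCNA and the helicase subunit gene MCM6, because such sites were more frequent in the promoters of this list than in all genes. The windows are the 250 bases before the RefSeq start on GRCh38.p14, PCNA at chr20:5126623-5126872 and MCM6 at chr2:135876444-135876693, both on the minus strand. Capitals mark TTTCCCGC, TTTGGCGC, TTTCGCGC or TTTGCCGC on either strand, where matches on both strands can overlap.
PCNA: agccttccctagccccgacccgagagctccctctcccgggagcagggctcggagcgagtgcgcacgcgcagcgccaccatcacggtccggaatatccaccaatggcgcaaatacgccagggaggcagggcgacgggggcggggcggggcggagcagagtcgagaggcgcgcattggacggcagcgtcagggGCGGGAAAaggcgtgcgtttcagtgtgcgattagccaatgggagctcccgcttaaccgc
MCM6: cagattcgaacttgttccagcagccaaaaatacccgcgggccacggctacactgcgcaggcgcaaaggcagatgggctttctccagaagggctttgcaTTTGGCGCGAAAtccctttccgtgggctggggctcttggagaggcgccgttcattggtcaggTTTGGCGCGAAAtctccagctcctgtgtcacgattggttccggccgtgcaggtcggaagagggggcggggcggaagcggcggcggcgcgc
The match in PCNA lay 59 bases before the start, and MCM6 held 4 overlapping matches in 2 stretches. Of 41 replication genes with a promoter in the table, 16 (39.0%) held such a site, against 3.40% of 27305 genes. For CLSPN, CHAF1B, FEN1, CDC6 and MCM10, which were lower by more than PCNA, no promoter with such a site was found. Mitotic genes were shifted less: 34 of 41 were lower without overlap and none higher, with a median of -0.39 and none 2-fold apart. The separase gene ESPL1 was 1.81-fold lower and the proliferation marker MKI67 1.74-fold, at 482, 282 and 505 CPM in NT control and at 265, 462 and 455 CPM in IKZF1-ko. The letters TTTGAA or TTCGAA, a core of the cell cycle homology region of mitotic promoters, were in 20 of 35 of their promoters (57.1%), against 17.2% of all genes.

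**Figure D3:**
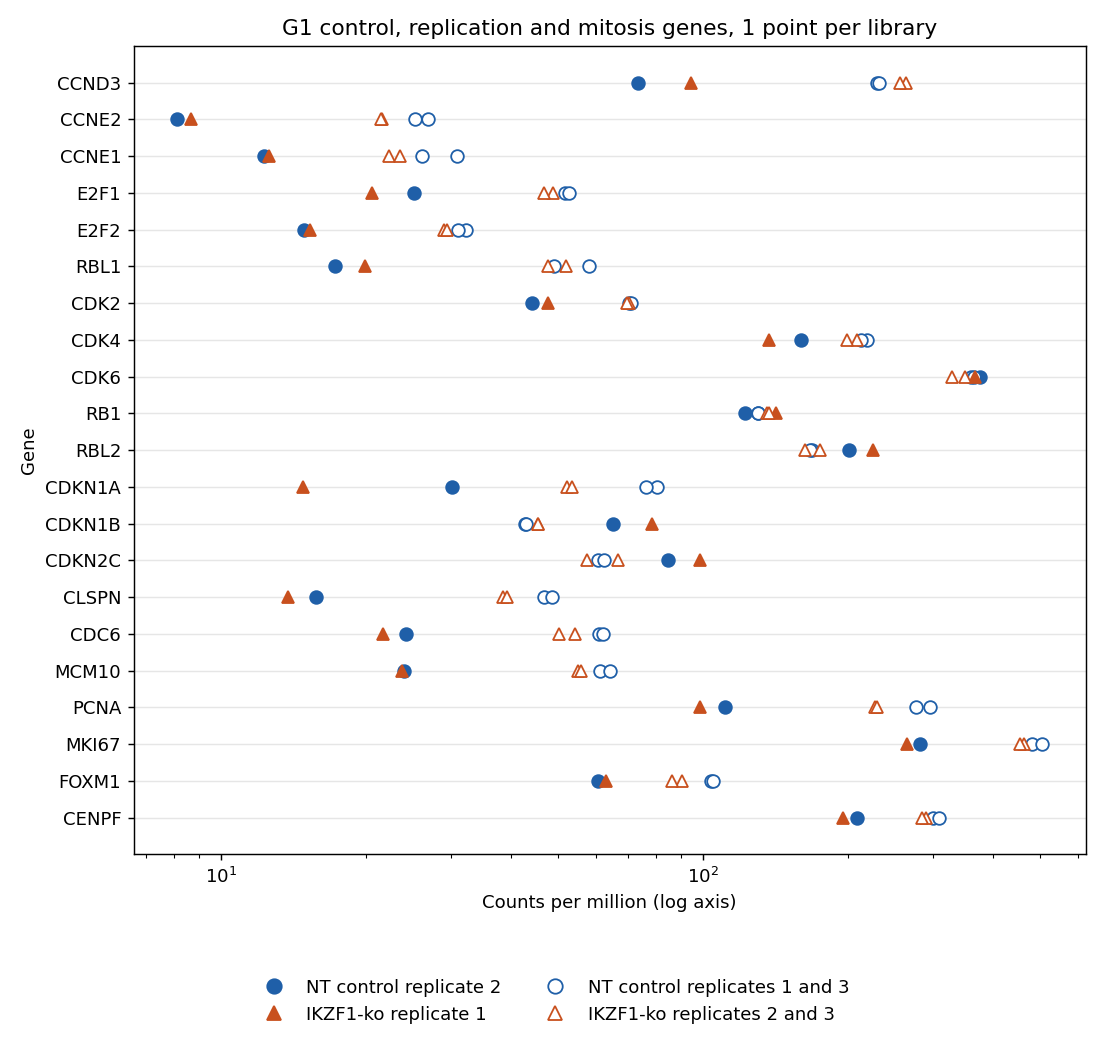
The x axis is CPM on a log scale and each row is a gene of G1 control, replication or mitosis, with 1 point per library. Filled symbols are NT control replicate 2 and IKZF1-ko replicate 1. They lie to the left of the open symbols in CCND3, CCNE2, RBL1, CDKN1A and the replication and mitosis genes shown, to the right in CDKN1B, CDKN2C and RBL2, and among them in RB1.

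Replication-dependent histone genes were higher while the replication genes were lower. These genes normally give mRNAs that end in a stem-loop with no poly(A) tail and are made in S phase, and the labels name an mRNA kit, of the kind that selects poly(A) RNA. Only 11 of 57 listed genes passed the filter, and all 11 were higher without overlap, with a median of 2.29, which says nothing of the 46 that did not pass. With no filter on low counts the list's median was 0.61. H2AC6 was at 1.44, 18.1 and 1.40 CPM in NT control and at 17.2, 2.62 and 1.66 CPM in IKZF1-ko (9.57-fold), and H2BC5 was 11.1-fold higher at 9.01 and 7.88 CPM in the pair. H2BC12, the most abundant, was at 14.3, 23.3 and 15.1 CPM and at 21, 13.9 and 13.5 CPM (1.55-fold). These genes are near-identical copies of each other, so reads may be split between them, and whether the reads come from polyadenylated histone mRNA was not tested.

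Ribosome production and ribosomal proteins went opposite ways. Of 47 genes of the MYC network and ribosome biogenesis, 38 were lower and 8 higher, with a median of -0.58. NOLC1, the gene of a nucleolar assembly factor, was at 539.6, 266 and 528 CPM in NT control and at 218, 485 and 489.8 CPM in IKZF1-ko (2.12-fold lower). UTP20, a factor gene of the small subunit processome, was 2.23-fold lower, and POLR1A, the largest subunit gene of RNA polymerase I, 1.95-fold lower. The MYC antagonist genes MXD1 (2.23-fold) and MXI1 (2.00-fold) were higher, MXI1 being a HIF target as well. The E-box CACGTG was in 8 of 41 of the promoters of the list (19.5%), against 7.73% of all genes.

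By contrast, 76 of 79 cytosolic ribosomal protein genes were higher without overlap and none lower, with a median of 0.43. A single member, RPL36A, was at least 2-fold apart (2.03-fold), at 5.77 to 14 CPM. RPL12 was at 1857, 3153 and 1836 CPM in NT control and at 3232, 2268 and 2163 CPM in IKZF1-ko (1.58-fold). Together these genes took 13.1% and 13% of all counts in the pair and 9.47% to 10.5% in the others. EEF1A1, the elongation factor gene with the most counts in every library, was at 18173, 30262 and 18947 CPM and at 33556, 21910.5 and 22314 CPM (1.57-fold). Ribosomal protein genes have many processed copies in the genome, and reads of these copies can be split from or added to their values.

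The mRNAs of ribosomal proteins and of EEF1A1 start with a C followed by a run of pyrimidines, the 5′ terminal oligopyrimidine (TOP) motif, through which mTORC1 controls their translation. The start sites are shown with 10 bases before them, the run in capitals, on GRCh38.p14: RPL12 at chr9:127451387-127451416 on the minus strand, EEF1A1 at chr6:73521013-73521042 on the minus strand and RPL13A at chr19:49487598-49487627 on the plus strand.
RPL12: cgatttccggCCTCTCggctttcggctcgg
EEF1A1: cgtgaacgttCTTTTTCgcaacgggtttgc
RPL13A: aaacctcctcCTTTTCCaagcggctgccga
The run was 6 pyrimidines long in RPL12 and 7 in the other two. These genes are shown because such a start was found for them. None was found for some other ribosomal protein genes that were looked up, nor for GAS5 and SNHG8. A start with C and 4 or more further pyrimidines was found in 47 of 63 ribosomal protein genes in the table (74.6%), against 5.14% of all genes. The noncoding RNA genes GAS5 (331, 649.9 and 334 CPM; 641, 373 and 380.4 CPM; 1.82-fold) and SNHG8 (1.79-fold), hosts of small nucleolar RNAs, were higher in the pair. Other long noncoding RNAs were higher too, with 7 of 8 listed genes not overlapping, MALAT1 at 2.21-fold and NEAT1 at 1.70-fold. Genes of the lincRNA and antisense classes took 0.668% and 0.697% of counts in the pair and 0.471% to 0.501% in the others, and made up 167 of the 742 genes set apart higher but 17 of the 342 lower, against 885 of all 13028 genes tested.

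Genes of the amino acid response were lower. ATF4 is the transcription factor that raises amino acid transport and synthesis when protein synthesis is limited. Of 31 measured targets 22 were lower and 3 higher, with a median of -0.59. CHAC1, the gene of a glutathione-degrading enzyme, was at 23.6, 6.89 and 21.7 CPM in NT control and at 4.81, 35.4 and 33.3 CPM in IKZF1-ko (4.75-fold lower). SLC7A11, the cystine importer gene, was at 133, 39.6 and 137 CPM and at 27.1, 134 and 139 CPM (4.13-fold lower). In both genes IKZF1-ko replicate 1 was the lowest library. SESN2 (3.15-fold), SLC7A5 (2.83-fold) and PSAT1 (2.57-fold), a stress sensor gene, a leucine transporter gene and a serine synthesis gene, were lower, too. The list's difference was -0.30 in NT control and -0.89 in IKZF1-ko, and this gap between the labels was not tested. Of 20 cytosolic tRNA synthetase genes 14 were lower and 1 higher, led by MARS1 (1.89-fold lower). The 3 targets that were higher were the stress factor gene DDIT3 (11.4, 22.9 and 11.1 CPM; 20.4, 19.2 and 19.0 CPM; 1.47-fold), ATF5 (1.46-fold) and PPP1R15A (2.08-fold).

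Chaperone genes were also lower, in 13 of 20 heat shock genes against 2 higher. HSP90AA1, the inducible HSP90 gene, was at 1864, 989 and 1928 CPM in NT control and at 869.7, 1481 and 1447 CPM in IKZF1-ko (1.80-fold lower), and DNAJA1 was 1.90-fold lower. Genes of the unfolded protein response of the endoplasmic reticulum were less uniform, with 11 of 23 lower and 5 higher. SDF2L1 was 1.94-fold lower and ERO1B 1.5-fold higher.

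Most p53 target genes were lower, 21 of 30 without overlap against 5 higher, and 11 by at least 2-fold, with a median of -0.69. ZMAT3, an RNA-binding splicing regulator gene, was at 59.9, 13.7 and 61.1 CPM in NT control and at 11.6, 47.8 and 49.6 CPM in IKZF1-ko (4.27-fold lower). SPATA18, a gene of mitochondrial quality control, was at 2.55, 0.0683 and 3.06 CPM and at 0.468, 3.99 and 3.43 CPM, a log2 difference of -3.25, or -3.84 without IKZF1-ko replicate 1. The apoptosis genes BAX and PMAIP1 were 2.26-fold and 2.35-fold lower. The BCL2 family had no shared direction, with 7 of 15 genes higher and 6 lower, and the higher ones include BBC3 (1.68-fold) beside BNIP3 and BNIP3L.

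Lipid synthesis genes divided by branch. Of 24 cholesterol synthesis and SREBP2 target genes 18 were higher and 1 lower, with a median of 0.42. STARD4, the gene of a sterol carrier, was at 58.2, 139.7 and 58.2 CPM in NT control and at 199, 57.6 and 58.3 CPM in IKZF1-ko (2.87-fold). MSMO1, which encodes an oxygen-using sterol demethylase, was 2.39-fold and HMGCS1 1.62-fold higher. Of 15 fatty acid synthesis genes 11 were lower and 4 higher. FASN, the fatty acid synthase gene, was at 720.0, 417 and 728 CPM and at 359, 630.4 and 613 CPM (1.73-fold lower), whereas ACSS2, which makes acetyl-CoA from acetate, was 1.76-fold higher. Fatty acid oxidation genes were mixed, with 5 of 19 higher and 4 lower.

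Redox and iron genes had members on both sides. Of 22 genes of the NRF2, glutathione and thioredoxin list 14 were lower and 3 higher. The thioredoxin reductase gene TXNRD1 was at 252, 118 and 261 CPM in NT control and at 108, 212 and 214 CPM in IKZF1-ko (2.06-fold lower), and NQO1 was 1.92-fold lower. The catalase gene CAT was 1.60-fold higher. In the iron list, with 9 of 21 higher and 6 lower, TFRC and the ferrireductase gene STEAP3 (2.06-fold) were lower, and the iron importer of mitochondria SLC25A37 (2.11-fold) and the iron exporter gene SLC40A1 (1.84-fold) were higher. TXNIP, the gene of a thioredoxin-binding inhibitor of glucose uptake, is on none of the lists. It was at 161, 802 and 159.6 CPM and at 1123, 239 and 257 CPM, 4.77-fold higher in the pair.

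**Figure D4:**
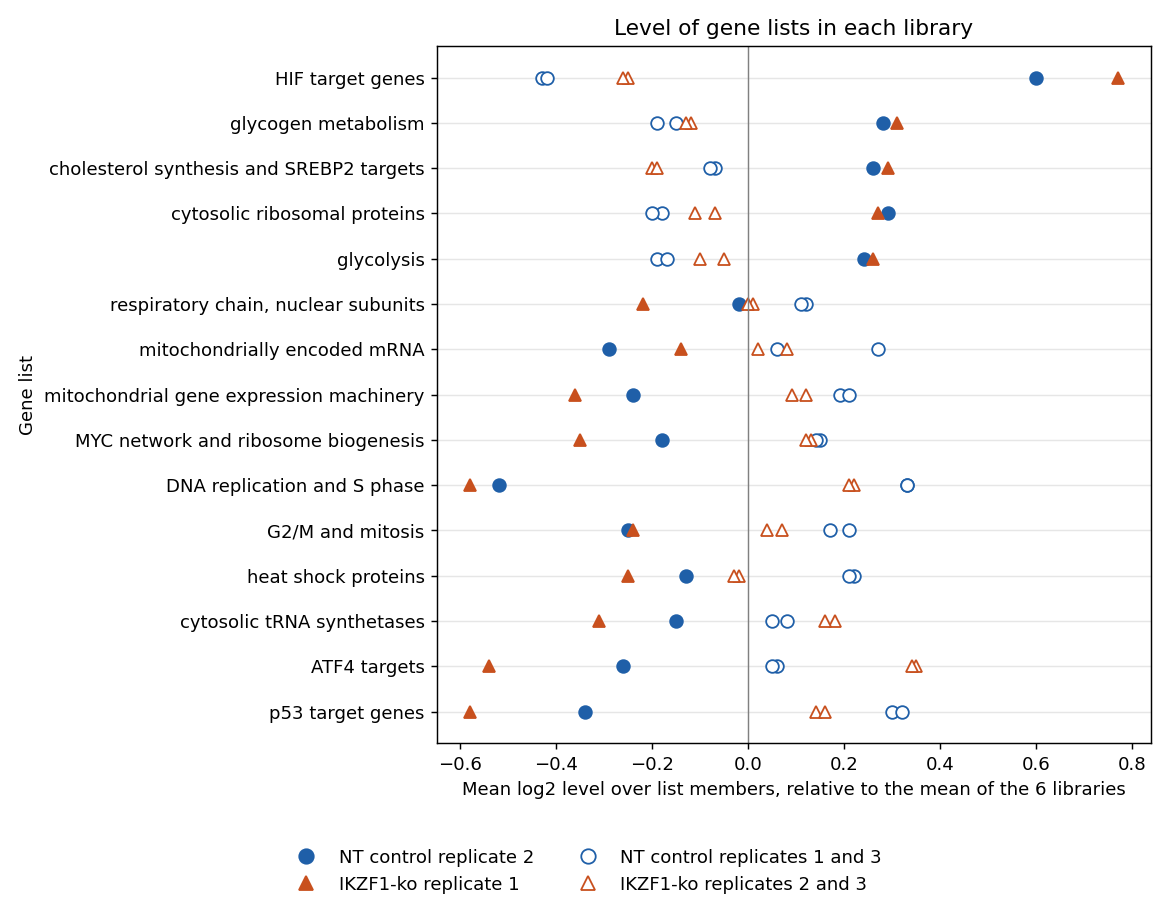
Each row is a gene list, and each point the mean over its measured members of the log2 level in 1 library, relative to the mean of the 6 libraries. Filled symbols are NT control replicate 2 and IKZF1-ko replicate 1. HIF targets, glycogen, cholesterol, ribosomal protein and glycolysis genes lie higher in the pair and the lists below them lower, and the open symbols of IKZF1-ko and NT control also stand apart from each other in several lists.

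Genes of myeloid identity were measured in all 6 libraries, and some were higher in the pair. Of 18 listed markers 14 passed the filter, while CD34 had no count and KIT 9 counts in all 6 libraries together. The markers' summed level was 4546 to 4786 CPM in the pair and 2800 to 3307 CPM in the others. Much of that gap lay in the granule genes AZU1 (a mean of 1648 CPM in the pair and 761 CPM in the others) and PRTN3. Of the 14 markers 8 were higher and 3 lower without overlap. Of 11 measured primary granule genes 4 were higher, 1 was lower and 6 overlapped. PRTN3 was at 144, 506 and 147 CPM in NT control and at 553, 219 and 222 CPM in IKZF1-ko (2.95-fold), AZU1 was 2.17-fold and ELANE 2.13-fold higher, while LYZ, the lysozyme gene, was 1.36-fold lower. MEIS1, the gene of a leukemia-associated homeobox factor, was 2.38-fold and the receptor gene CSF3R 1.81-fold higher. Of 14 monocyte and macrophage genes 2 were higher, 3 lower and 9 overlapped, with medians of -0.42 within NT control and -0.47 within IKZF1-ko. Among those that overlapped, CSF1R was at 4.58, 1.30 and 3.85 CPM in NT control and at 7.82, 16.8 and 14.1 CPM in IKZF1-ko. CX3CR1 was at 1.95, 0.819 and 2.45 CPM and at 3.47, 9.66 and 7.92 CPM. Within each label both genes were lowest in the library of the pair.

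Markers of other cells were scarce. Their summed level, carried by a few genes, was higher in the pair, but not every member went that way. Of 19 erythroid and megakaryocyte markers 12 had no count, including HBA1 and HBB, and the sum was 20.9 to 23.7 CPM in the pair against 11.9 to 12.8 CPM in the others, mostly from EPOR. The lymphoid sum was 311 to 349 CPM against 208 to 255 CPM and came mostly from CD4, which monocytic cells also express, with CD3E and MS4A1 at 0. The stromal, endothelial and epithelial sum was 132 to 144 CPM against 94.6 to 103 CPM, from PECAM1 and PDGFRB, with EPCAM and KRT18 at 0 and COL1A1 at 10 counts in all. PAX5, a B lineage factor gene, overlapped between the sets at 11.2 to 15.1 CPM, as did NKG7, a gene of cytotoxic cells, at 6.08 to 10 CPM, while NCAM1 was 1.30-fold higher in the pair without overlap. Of 6 measured lymphoid genes 2 were higher, 1 was lower and 3 overlapped, with a median of -0.11. The lower gene was IL7R, with 75 counts in all 6 libraries and a log2 difference of -1.83. Of 3 measured stromal, endothelial and epithelial genes 2 were higher and 1 overlapped, at -1.01. The part of these markers in the other differences was not tested.

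Signalling and inflammatory genes were mixed. Of 21 immediate early genes 9 were higher and 3 lower, and KLF10, a TGF-beta induced gene, was at 12, 53.5 and 13.4 CPM in NT control and at 89.1, 14.6 and 17.6 CPM in IKZF1-ko (4.80-fold). Of 16 NF-kB and inflammatory genes 8 were higher and 4 lower, with TRAF1 2.42-fold and NFKB2 2.19-fold higher and IL1B 3.18-fold lower. In the interferon list 10 of 25 were higher and 2 lower, STAT2 being 2.22-fold higher. OAS3 was 3.91-fold lower, at 10, 2.53 and 10.1 CPM and at 5.15, 21.3 and 20.4 CPM.

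Among the genes with the largest differences were several on none of the lists. TBC1D30, which encodes a Rab GTPase-activating protein, was at 5.01, 123 and 7.09 CPM in NT control and at 183, 10.6 and 10.5 CPM in IKZF1-ko, 18.6-fold higher in the pair and second only to MIR210HG. JPH2, the junctophilin gene, was at 1.87, 25.9 and 3.15 CPM and at 34.3, 4.31 and 4.08 CPM (9-fold), and the divergent transcript SAP30-DT was 11-fold higher. The log2 difference of SAP30-DT was 3.46, but 2.68 without NT control replicate 2 and 4.24 without IKZF1-ko replicate 1. TENT5C, the gene of a noncanonical poly(A) polymerase, was 6.51-fold and the peptide transporter gene SLC15A2 5.67-fold higher. EFEMP2, PPP1R1B, PCP2, EFNA3 and PNCK were 5.82-fold to 6.63-fold higher, each at no more than 16 CPM. Of the genes that were lower, SH2B3, which encodes an adaptor that restrains cytokine receptor signalling, was at 52.5, 14.2 and 47.5 CPM and at 11.6, 54.2 and 53.3 CPM (4-fold), and the cortisol-activating enzyme gene HSD11B1 was 3.88-fold lower. SIPA1L2, LRRC4, C3, GPRIN1, SGMS2, CSPG4 and LINC00680 were 3.39-fold to 4.82-fold lower, each at no more than 17.5 CPM.

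The median level of the genes set apart higher was 4.12 CPM against 27.7 CPM over all genes tested, and 62.9% were protein-coding against 86.6%. Those set apart lower had a median of 9.68 CPM, and 86.5% were protein-coding. Across 13006 genes with a length, the set difference and exon length had a Spearman rho of -0.08. The 50 most abundant genes took 19.6% and 19.9% of counts in the pair and 16.3% to 17.3% in the others, and the TMM factors were 0.979 and 0.983 against 1.01. The part of these shares in the differences of single genes was not tested.

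The labels give a single comparison that can be tested, IKZF1-ko against NT control. With a term for the library set, which takes the sets as known although they come from the same counts, edgeR's quasi-likelihood test called 903 genes higher (6.93%) and 862 lower (6.62%) in IKZF1-ko. Without IKZF1-ko replicate 3 it called 811 in all and without NT control replicate 1 948, and on group alone it called 0, with 456 genes at an unadjusted p under 0.05. Of the 47 HIF target genes, 16 were called higher and 2 lower in IKZF1-ko, and of the 742 genes set apart higher 123 were called higher and 6 lower. Of the 342 set apart lower, 69 were called lower and 14 higher. IKZF1-ko replicates 2 and 3 scored higher on the first component than NT control replicates 1 and 3, and IKZF1-ko replicate 1 higher than NT control replicate 2, and the part of that offset in these calls was not tested.

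Over the 47 HIF target genes the median label difference was 0.15 on the log2 scale, beside 1.02 for the pair. TMEM45A, known as a hypoxia-induced gene, was at 7.13, 16.7 and 7.79 CPM in NT control and at 31.5, 14.4 and 16.3 CPM in IKZF1-ko, higher by 0.98 (SE 0.1) on the log2 scale in IKZF1-ko (edgeR adjusted p = 8.28e-06) and by 1.09 in the pair. SLC2A3 was at 21.6, 67.7 and 22.0 CPM and at 109, 38.4 and 36.9 CPM, higher by 0.74 (SE 0.065) in IKZF1-ko (edgeR adjusted p = 9.88e-07). P4HA1 was higher by 0.34 (SE 0.047; edgeR adjusted p = 0.000123). DDIT4 was at 81.7, 71.0 and 87.7 CPM and at 81.1, 162 and 153 CPM, so its label difference of 0.67 (SE 0.095; edgeR adjusted p = 0.00015) lay in the other 4 libraries and was opposite in sign to its set difference of -0.61. The chemokine receptor gene CXCR4 was higher in the pair by 0.86 and lower in IKZF1-ko by a log2 difference of -0.38 (SE 0.059; edgeR adjusted p = 0.000402), and TFRC was lower in both comparisons (-0.94 for the pair; -0.34 for the label, SE 0.045, edgeR adjusted p = 8.94e-05). For OAS3 the difference was -1.97 for the pair and 1.05 for the label (SE 0.12; edgeR adjusted p = 1.28e-05). On the label alone, with no term for the set, none of these genes passed the edgeR test.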

How the data were processed

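RNA of 6 OCI-AML2 samples was extracted with RNeasy columns, made into stranded mRNA libraries and read on a NovaSeq machine, per the labels' protocols. The authors deposited 1 table of whole-number read counts per Ensembl gene, unscaled, with 58233 identifiers, and these counts were used as deposited. Per the submitters' processing notes, which name no versions, Trimmomatic, STAR and GRCh38 were used. For the read counter, its strand setting and the annotation, nothing is given in the sources used here. GENCODE release 29 held 57895 of the identifiers, and 57392 had a symbol. There were 0 columns of other samples.

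The filterByExpr function of edgeR 4.0.16 (R 4.3.3) kept 13028 genes with 99.9% of counts, in libraries of 11300519 to 18214328 counts. Log2 CPM was computed from these counts with a prior count of 2 and TMM scaling. The pair and the gene lists (41 lists, 1040 different genes) were chosen with earlier results of these data known. Differences between the sets were described, not tested. The label test was the edgeR quasi-likelihood F test with terms for set and label, two-sided, with Benjamini-Hochberg adjustment over all genes and a threshold of 0.05. On simulated counts with 200 changed genes, the label test recovered 79.4%, 77.9% and 98.6% of those changed 1.5-fold, 2-fold and 4-fold. Of 179 genes called there, 8 were false. The simulation took the library set as known, so it cannot check the effect of choosing the set from the counts. The deviations from the group means correlated at -0.66, -0.69 and 0.59 for equal replicate numbers, and at 0.82 between the libraries of the pair. The libraries of the pair carry unlike numbers and dominate these deviations, so the values cannot show whether replicate numbers pair the samples.

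The rule for naming covers the 15 highest and 15 lowest genes set apart at least 2-fold with at least 5 CPM in the higher libraries and an official symbol. It also covers up to 5 members of each list by size of difference, and any measured member of the HIF target, oxygen-sensing, glycolysis and G1 lists. Of the 15 highest, the histone gene H2BC21 is not described. ATF5, CAT, CDT1, DDIT3, EEF1A1, ERO1B, H2BC12, LYZ, MCM6, NKG7, PCNA, PPP1R15A and TXNIP were named outside that rule, after their values were seen. Promoters and start sites come from RefSeq tables on GRCh38.p14, matched by symbol. Values are uncertain where genes share exon positions on the same strand, as ALDOA, ATF5, BBC3, CCND2, CD79B, CHAF1B, DDIT3, EFNA3, EP300, EPOR, FEN1, GPI, HIF1A, HILPDA, LDHB, LINC00680, MALAT1, MARS1, MXD1, NEAT1, PFKFB4, PFKP, PGK1, PPP1R3E, RPL13A, RPL36A, SLC2A1, SNHG8, TIGAR and ZNF395 do. On the opposite strand only, IKZF1, ALDOC, P4HA1, CCND3, CDKN1A, CDK4, NCAM1, PAX5, SLC7A11 and 40 other named genes do. The alternatives were RLE and library-size scaling, no filter or at least 5 CPM in 2 libraries, a prior count of 0.5, the edgeR set coefficient, a 1.5-fold threshold, DESeq2 1.42.0, the label alone, the 4 libraries alone, a replicate block and each library left out. Figures were drawn with matplotlib 3.10.9.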

Additional observations from a re-analysis of the deposited data

Results flagged for a closer look

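For CD79B, a B cell receptor gene at 1.27 to 2.13 CPM in all libraries, the set difference had opposite signs within the labels, 0.02 in NT control and -0.44 in IKZF1-ko on the log2 scale, a gap of -0.47 that was not tested.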

How the results depend on the processing

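The number of genes set apart at least 2-fold was 1210 higher with no filter on low counts, 448 higher and 207 lower with at least 5 CPM in 2 libraries, and 1929 higher and 1372 lower at 1.5-fold. Leaving out 1 library gave 790 to 892 higher and 362 to 483 lower, as fewer libraries must then be cleared. With no filter the median was 0.04 for glycolysis, -0.28 for G1 control (-0.50 with the filter), -0.90 for replication and -0.02, the reverse sign, for the oxygen-sensing genes. With at least 5 CPM it was 0.29 for glycolysis, -0.53 for G1 control, -0.85 for replication and -0.63 for p53 targets. With library-size scaling it was -0.54, -0.92 and -0.73 for G1 control, replication and p53 targets. Leaving out 1 library gave medians of 0.94 to 1.04 for HIF targets, -0.43 to -0.26 for G1 control, -0.90 to -0.87 for replication, -0.61 to -0.48 for ribosome biogenesis and -0.95 (without NT control replicate 2) to -0.28 (without IKZF1-ko replicate 1) for ATF4 targets. Without IKZF1-ko replicate 1 the oxygen-sensing median (-0.005; highest 0.07) and the BCL2 family median (-0.01; highest 0.09) changed sign. So did lymphoid markers (0.17 without IKZF1-ko replicate 1; -0.11 with all libraries), fatty acid oxidation (-0.05; 0.07 with all) and iron genes (0.05; -0.02 with all) without NT control replicate 2, and lysosome genes (-0.04 to 0.04; 0.03 with all) without NT control replicate 1 or 2 or IKZF1-ko replicate 2. The mitochondrial mRNA median ranged from -0.46 to -0.19.

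For the label comparison, DESeq2 called 1159 genes and the 4 libraries alone 1908, and on the label alone 0 were called. Leaving out 1 library gave 811 (without IKZF1-ko replicate 3) to 1943. A replicate block beside the library-set term gave 2942, although it is not known whether the numbers pair samples. Not every library correlated best with its own number. The cause of these shifts was not tested. Depth limits genes near 1 CPM, whose values rest on few reads.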
